A study of Mus musculus with 4 samples.

Results

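Desmosomes are the cell junctions that tie the keratin filaments of one keratinocyte to those of its neighbour. The 10 desmosomal genes described here are the desmogleins Dsg1a, Dsg1b, Dsg2, Dsg3 and Dsg4, the desmocollins Dsc1, Dsc2 and Dsc3, the armadillo protein plakophilin 1 (Pkp1) and the linker desmoplakin (Dsp). They were taken by gene symbol from a table of 45706 genes, and each of the 10 symbols matched 1 gene. The tissue was the mouse digit tip 14 days into regeneration after amputation, and each genotype had 1 RNA-seq library. The genotypes were conditional knockout (cKO) of Sp6, of Sp8 or of both (Sp6+Sp8), and wildtype, where Sp6 and Sp8 are SP-family transcription factors expressed in epidermis. The labels give batch 1 for the 3 cKO libraries and batch 3 for wildtype. In any comparison with wildtype, batch and knockout cannot be told apart, whereas 2 cKO libraries are always compared within batch 1. Tamoxifen (75 mg/kg on each of 5 days, then 5 days of rest) was used to induce the knockouts, per the labels' protocols. The sources used here do not give the Cre driver and the cells it acts in, the strain, the age, the number of animals in a library or whether wildtype mice received tamoxifen.

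Desmogleins and desmocollins are transmembrane cadherins that bind each other between cells. Inside the cell they are held by plakoglobin and plakophilins, and desmoplakin links that plaque to keratins. The cadherins are used in layers: Dsg3 and Dsc3 are most abundant in the lower epidermis, Dsg1 and Dsc1 in the suprabasal and cornifying layers, and Dsg4 in the differentiating hair shaft, while Dsg2 and Dsc2 occur in desmosomes of many epithelia. In mice, loss of Dsg4 gives the lanceolate hair phenotype, and in humans autoantibodies against DSG3 and DSG1 cause pemphigus.

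A promoter window was matched for 1 of the 10 genes, Dsp. It is shown because desmoplakin is the plaque protein that the cadherins share, and because factors of the SP family are known to bind GC-rich boxes. The 250 bases before the Dsp start site (chr13:38151044-38151293, plus strand, RefSeq, GRCm38.p6) read as follows, with GC boxes in capitals.
Dsp: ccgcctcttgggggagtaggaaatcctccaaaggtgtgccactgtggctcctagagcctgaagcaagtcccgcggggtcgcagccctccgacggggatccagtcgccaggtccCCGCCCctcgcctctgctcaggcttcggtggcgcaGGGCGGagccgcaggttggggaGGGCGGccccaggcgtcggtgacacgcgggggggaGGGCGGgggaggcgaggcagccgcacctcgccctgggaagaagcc
The GC box was searched as GGGCGG and, for the other strand, CCGCCC, and the window held 4 matches that do not overlap, beginning 137, 102, 80 and 45 bases before the start site. Of 32851 promoter windows of the same length, 32.7% held at least 1 GC box. The CACC box, searched as CCACCC and GGGTGG, had no match here and was present in 28.1% of windows. The window was 72.4% G and C, against a median of 52.4%. A match is a description of the letters and not evidence of binding.

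With 1 library per genotype no difference could be tested against variation between animals, and every comparison describes 2 libraries rather than 2 conditions. Depth lay between 12588511 counts (Sp8 cKO) and 21834883 counts (wildtype), and the 10 genes together held 1.56% of the counts in Sp6 cKO, 1.52% in Sp8 cKO, 1.34% in Sp6+Sp8 cKO and 1.65% in wildtype. Levels are given as CPM (counts scaled to a common library size) after library scaling by the trimmed mean of M values (TMM). The 95% intervals are exact and cover counting error only. A gene was counted as past the size rule when its log2 ratio was at least 1 in either direction, its CPM reached 1 in at least 1 library of the pair, and its interval excluded a ratio of 1. The targeted genes followed the labels in part: Sp6 was 29.2 CPM in Sp6 cKO and 57.8 CPM in Sp6+Sp8 cKO, against 97.7 CPM in wildtype, and Sp8 was 16.8 CPM in Sp8 cKO and 13.4 CPM in Sp6+Sp8 cKO, against 63.9 CPM in wildtype. Markers of basal keratinocytes, suprabasal keratinocytes and hair and nail cells were detected in all 4 libraries, with none of the matched genes at 0.

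Of the 10 genes, 8 lie in a single cluster of 644 kb on chromosome 18 (GRCm38, GENCODE M21). The desmocollins lie on the minus strand in the order Dsc3 (ENSMUSG00000059898, 19960930 to 20002351), Dsc2 (ENSMUSG00000024331, 20030633 to 20059554) and Dsc1 (ENSMUSG00000044322, 20084184 to 20114871). The desmogleins follow on the plus strand as Dsg1a (ENSMUSG00000069441, 20310811 to 20343350), Dsg1b (ENSMUSG00000061928, 20376729 to 20410196), Dsg4 (ENSMUSG00000001804, 20436175 to 20471821), Dsg3 (ENSMUSG00000056632, 20510274 to 20547459) and Dsg2 (ENSMUSG00000044393, 20558074 to 20604521). Pkp1 lies on chromosome 1 (ENSMUSG00000026413, 135871395 to 135919207, minus strand) and Dsp on chromosome 13 (ENSMUSG00000054889, 38151294 to 38198577, plus strand). All 10 are annotated as protein-coding. Dsg1a and Dsg1b are close copies: of the distinct 31-base words in the Dsg1b transcript, 54.9% also occur in Dsg1a, and 41.4% of the words of Dsg1a occur in at least 1 other gene, mainly Dsg1b. The division of reads between these 2 genes is therefore uncertain, and their sum is given beside them. Of the other 8 genes, Dsp and Dsg2 shared 4.86% and 4.25% of their words with another gene, and the remaining 6 shared less than 1% each. Dsg2 overlaps the antisense gene Gm16090, which had 0 to 7 counts, and Pkp1 overlaps Gm36938 on its own strand, which had 1026 to 2113 counts.

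All 10 genes were well expressed, with at least 44.1 CPM in every library. Scaled for length, as CPM per kb of annotated exon, Dsp was the most abundant of them in each library, at 648 in Sp6 cKO, 616 in Sp8 cKO, 574 in Sp6+Sp8 cKO and 693 in wildtype. Pkp1, Dsc1 and Dsg1a came next, between 318 and 499 CPM per kb over the 4 libraries, followed by Dsg1b and Dsc3, between 187 and 236. Dsg3 and Dsg4 lay between 16.2 and 38.2 CPM per kb, Dsc2 between 9.66 and 20.4, and Dsg2 between 5.34 and 7.27. The order changed between libraries in places: Dsc3 was above Dsg1b in Sp8 cKO and Sp6+Sp8 cKO, and Dsg4 was above Dsg3 in Sp8 cKO, below it in Sp6 cKO and Sp6+Sp8 cKO, and about level with it in wildtype. In Sp6+Sp8 cKO Dsc2, at 20.4 CPM per kb, was also above Dsg4, at 16.2. The order of close genes depends on the length used. Per kb of the longest transcript, Dsg4 and Dsg3 were at 34.6 and 33.7 in Sp8 cKO, and at 35.8 and 41.0 in wildtype. The suprabasal cadherins thus exceeded the basal Dsg3 by a wide margin, and Dsc3 was the most abundant of the basal and broadly expressed cadherins.

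**Figure D1:**
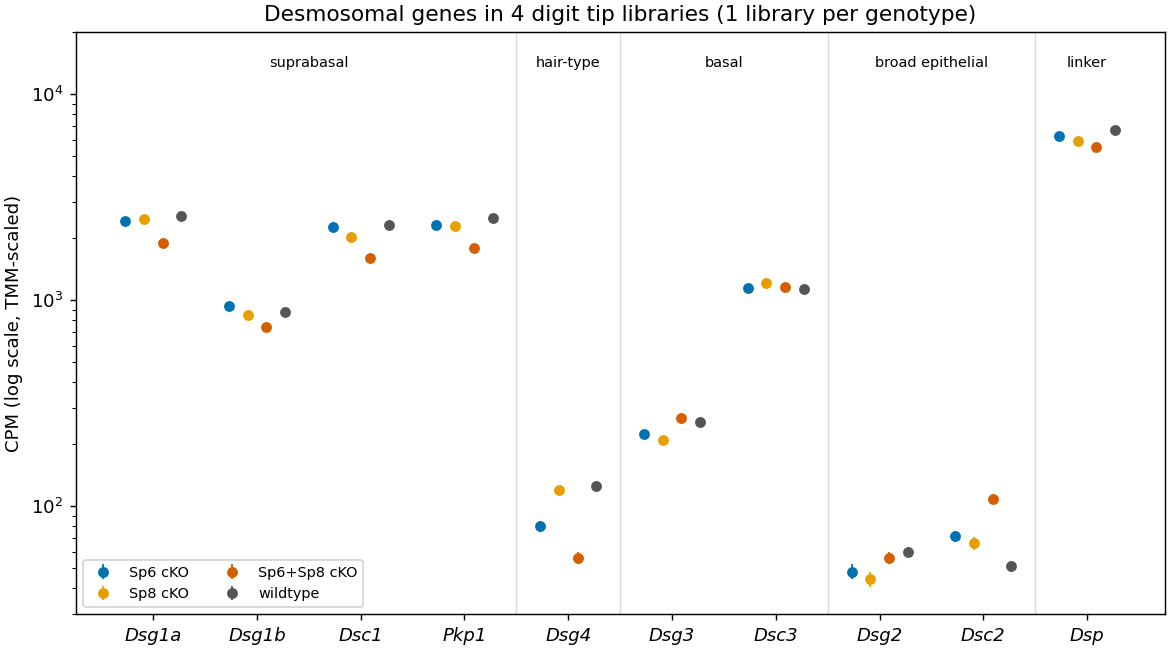
CPM of the 10 genes on a log scale, with 1 point per library (Sp6 cKO, Sp8 cKO, Sp6+Sp8 cKO and wildtype from left to right) and bars for the 95% counting interval, most of which are smaller than the points. Dsg4 is lowest and Dsc2 highest in Sp6+Sp8 cKO, while the 4 points of Dsc3 lie within 1.06-fold of each other.

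The Sp6+Sp8 cKO library had lower levels of the suprabasal and hair-type genes than wildtype, about level Dsg3 and Dsc3, and a higher level of Dsc2. In this comparison 2 of the 10 genes were past the size rule, Dsg4 lower and Dsc2 higher, against 5.79% of 16861 genes (2.84% higher and 2.95% lower). With a CPM minimum of 5 the share over all genes was 2.98%, with the same 2 genes past the rule. A share of 2 in 10 is coarse beside either background. Under scaling to pan-epithelial genes the calls over all genes leaned towards higher, at 722 higher and 350 lower in place of 479 and 497. The median log2 ratio of the 10 genes was -0.25, against -0.02 over all genes compared (-0.09 and 0.15 under scaling to pan-epithelial genes), and their median absolute log2 ratio was 0.35, against 0.22 over all genes compared and 0.18 over the 10427 genes with a CPM of at least 10. The counting interval excluded 1 for 9 of the 10 genes, 3 higher and 6 lower, against 55.8% of genes with a CPM of at least 10, so at these depths that criterion was met by most genes. Some immune markers also differed. The neutrophil list (S100a8, S100a9, Ly6g and Retnlg) summed to 61.3 CPM in Sp6 cKO, 39.9 CPM in Sp8 cKO and 85.7 CPM in Sp6+Sp8 cKO, against 12.1 CPM in wildtype. Of these genes Ly6g had 0 counts in Sp6+Sp8 cKO, the library with the highest sum. T cell markers summed to 18.9 CPM in Sp6 cKO, 6.99 CPM in Sp8 cKO and 17.5 CPM in Sp6+Sp8 cKO, against 2.71 CPM in wildtype. Only 1 of the 4 T cell markers reached 1 CPM in wildtype. Macrophage markers differed less, at 134, 144 and 117 CPM in the Sp6, Sp8 and Sp6+Sp8 cKO libraries, against 110 CPM in wildtype. Mast cell markers were at 77.0, 88.4 and 47.1 CPM, against 39.1 CPM. The part of immune cell content in the differences from wildtype was not tested. In bulk tissue, fewer cells of a type and less RNA per cell cannot be told apart.

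Dsg4, the desmoglein of the hair shaft, had the largest deficit. It stood at 80.1 CPM in Sp6 cKO, 120 CPM in Sp8 cKO and 56.3 CPM in Sp6+Sp8 cKO, against 125 CPM in wildtype. The Sp8 cKO and wildtype libraries were the high pair, and the Sp6 cKO and Sp6+Sp8 cKO libraries were the low pair. The Sp6 transcript was 29.2 CPM in Sp6 cKO and 57.8 CPM in Sp6+Sp8 cKO, and its part in the Dsg4 levels was not tested. Dsg4 was 2.21-fold lower in Sp6+Sp8 cKO than in wildtype (95% interval 2.05 to 2.39) and 1.56-fold lower in Sp6 cKO (1.45 to 1.67). The interval for Sp8 cKO against wildtype included 1 (log2 ratio -0.05). Within batch 1, Dsg4 was 2.14-fold lower in Sp6+Sp8 cKO than in Sp8 cKO (1.96 to 2.33), 1.42-fold lower than in Sp6 cKO (1.30 to 1.56), and 1.5-fold lower in Sp6 cKO than in Sp8 cKO (1.39 to 1.63). When libraries were scaled to pan-epithelial genes instead, its log2 ratios in Sp6+Sp8 cKO against wildtype and Sp8 cKO became -0.98 and -0.97, just short of the size rule.

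The hair and nail cortex keratins were set beside Dsg4, which is known to be expressed in the hair cortex. In Sp6+Sp8 cKO against wildtype 2 of 10 measured keratins were past the size rule, against 5.79% of all genes compared (2.95% lower). They were Krt33b and Krt83 at -1.26 and -1.13, both lower, and the list median was -0.90. The direction was not shared by all of them, since Krt36 and Krt84 were at 0.38 and 0.30. Within batch 1, Sp6+Sp8 cKO against Sp6 cKO had 4 of the 10 lower past the rule (Krt33b, Krt34, Krt81 and Krt86). There 3.97% of all genes passed, the list median was -0.86 and 3 keratins were above 0. Against Sp8 cKO the same genes and Krt83 were lower past the rule, 5 of the 10, where 4.68% of all genes passed (2.80% lower). The list median there was -1.01, with 2 keratins above 0. In Sp6 cKO against wildtype none passed and the median was 0.03, with Krt35 lowest at -0.64 and Krt34 highest at 0.35, while Dsg4 was at -0.64. In Sp8 cKO none passed and the median was 0.14. Dsg4 was thus lower in Sp6 cKO without a lower median of these keratins, and lower together with them in Sp6+Sp8 cKO. The 5 matched hair and nail markers were Krt31, Krt34, Krt81, Krt86 and Hoxc13. Their summed level was 3206 CPM in Sp6 cKO, 3466 CPM in Sp8 cKO and 1506 CPM in Sp6+Sp8 cKO, against 2863 CPM in wildtype. The keratins among them belong to the list above, so the sum is not a separate measure, and Krt36 and Krt84 are outside it. The part of hair and nail cell content in the Dsg4 result was not tested. Hoxc13, a transcription factor of hair and nail differentiation, had log2 ratios of -0.50, -0.20 and -0.73 in the Sp6, Sp8 and Sp6+Sp8 cKO libraries against wildtype.

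Dsc2 went the other way. It stood at 71.3 CPM in Sp6 cKO, 66.0 CPM in Sp8 cKO and 108 CPM in Sp6+Sp8 cKO, against 51.0 CPM in wildtype. All 3 cKO libraries were above wildtype, and Sp6+Sp8 cKO was the highest. The ratio to wildtype was 2.12 in Sp6+Sp8 cKO (95% interval 1.96 to 2.29), 1.40 in Sp6 cKO (1.28 to 1.53) and 1.29 in Sp8 cKO (1.18 to 1.42), and these ratios share the wildtype value. Within batch 1 Sp6+Sp8 cKO exceeded Sp6 cKO 1.51-fold (1.39 to 1.64) and Sp8 cKO 1.64-fold (1.5 to 1.78), and the interval for Sp6 cKO against Sp8 cKO included 1. Its neighbours in the cluster did not share a difference of this size: in Sp6+Sp8 cKO against wildtype the log2 ratio was 0.03 for Dsc3 and -0.52 for Dsc1, against 1.08 for Dsc2.

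The suprabasal genes had the same order at the low end, with Sp6+Sp8 cKO lowest of the 4 libraries for each. Dsc1, the desmocollin of the upper epidermis, was 2267 CPM in Sp6 cKO, 2018 CPM in Sp8 cKO and 1607 CPM in Sp6+Sp8 cKO, against 2309 CPM in wildtype. Pkp1, which strengthens epidermal desmosomes and whose loss in humans causes skin fragility, was 2327 CPM in Sp6 cKO, 2287 CPM in Sp8 cKO and 1791 CPM in Sp6+Sp8 cKO, against 2508 CPM in wildtype. Dsg1a and Dsg1b, the mouse counterparts of the human DSG1 gene, summed to 3354 CPM in Sp6 cKO, 3334 CPM in Sp8 cKO and 2642 CPM in Sp6+Sp8 cKO, against 3432 CPM in wildtype. Each of these measures was lowest in Sp6+Sp8 cKO, and for Dsc1 the Sp8 cKO library lay between it and the other 2. Against wildtype, Sp6+Sp8 cKO was 1.44-fold lower for Dsc1 (95% interval 1.42 to 1.46) and 1.40-fold lower for Pkp1 (1.38 to 1.42), and the ratio was 0.770 for the Dsg1a and Dsg1b sum (0.761 to 0.779). Within batch 1 the same 3 measures had log2 ratios of -0.50, -0.38 and -0.34 against Sp6 cKO and -0.33, -0.35 and -0.34 against Sp8 cKO. None reached the size rule.

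Taken singly, Dsg1a was 2420 CPM in Sp6 cKO, 2488 CPM in Sp8 cKO and 1900 CPM in Sp6+Sp8 cKO, against 2558 CPM in wildtype. Dsg1b was 934 CPM in Sp6 cKO, 847 CPM in Sp8 cKO and 742 CPM in Sp6+Sp8 cKO, against 874 CPM in wildtype. Both were lowest in Sp6+Sp8 cKO. The ratio of Dsg1a to Dsg1b counts, added after the values were seen, was 2.59 in Sp6 cKO and 2.56 in Sp6+Sp8 cKO, against 2.94 in Sp8 cKO and 2.93 in wildtype. Because the copies share sequence, this balance depends on how the reads were assigned. A further copy, Dsg1c, had 17 to 46 counts.

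The suprabasal keratins, which attach to these desmosomes, had a list median of -0.46 in Sp6+Sp8 cKO against wildtype, where Krt1 and Krt10 were at -0.60 and -0.31. There 1 of 4 was past the rule, against 5.79% of all genes compared: Krt77 at -1.43, from 26 counts and 104 in wildtype. In Sp6 cKO Krt77 at -1.14, from 27 counts, was past the rule, against 4.40% of all genes compared, and the list median was -0.02. In Sp8 cKO none of the 4 passed and the median was -0.22. The 5 suprabasal keratinocyte markers, which include Krt1 and Krt10, summed to 16346 CPM in Sp6 cKO, 13174 CPM in Sp8 cKO and 11949 CPM in Sp6+Sp8 cKO, against 16556 CPM in wildtype. The part of suprabasal cell content in the results for Dsg1, Dsc1 and Pkp1 was not tested. Fibroblast markers were also lower, at 12379 CPM in Sp6+Sp8 cKO against 15630 CPM in wildtype.

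The basal pair did not share the deficit. Dsc3 was 1152 CPM in Sp6 cKO, 1209 CPM in Sp8 cKO and 1161 CPM in Sp6+Sp8 cKO, against 1138 CPM in wildtype, the narrowest span of the 10 genes. Dsg3 was 224 CPM in Sp6 cKO, 209 CPM in Sp8 cKO and 267 CPM in Sp6+Sp8 cKO, against 255 CPM in wildtype. Dsg3 was therefore lower than wildtype in both single cKO libraries, with log2 ratios of -0.18 and -0.28, and slightly above it in Sp6+Sp8 cKO, at 0.07. Within batch 1, Dsg3 in Sp6+Sp8 cKO exceeded its level in Sp6 cKO 1.19-fold (95% interval 1.13 to 1.25) and that in Sp8 cKO 1.27-fold (1.21 to 1.34). The basal keratins Krt5, Krt14 and Krt15 were at 0.04, -0.08 and -0.53 in Sp6+Sp8 cKO against wildtype, and none of the 3 basal keratins passed the rule in the 3 comparisons with wildtype. Basal keratinocyte markers, which include these keratins, summed to 5385, 5458 and 5443 CPM in the Sp6, Sp8 and Sp6+Sp8 cKO libraries, against 5891 CPM in wildtype.

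Dsg2, the least abundant of the 10 per length, also had its lowest levels in the single cKO libraries. It had 48.2 CPM in Sp6 cKO, 44.1 CPM in Sp8 cKO and 56.1 CPM in Sp6+Sp8 cKO, against 60.1 CPM in wildtype. The single cKO libraries were low, at 1.25-fold (95% interval 1.13 to 1.37) and 1.36-fold (1.23 to 1.51) below wildtype. In Sp6+Sp8 cKO the log2 ratio to wildtype was -0.10 with an interval that included 1, and its sign became positive (0.07) when libraries were scaled to pan-epithelial genes. Dsp, which all desmosomes need, was 6259 CPM in Sp6 cKO, 5946 CPM in Sp8 cKO and 5545 CPM in Sp6+Sp8 cKO, against 6697 CPM in wildtype. All 3 cKO libraries were below wildtype. The difference was 1.21-fold for Sp6+Sp8 cKO (1.20 to 1.22), smaller than for Dsg1a, Dsc1 or Pkp1 but not than for Dsg1b, at 1.18-fold (1.15 to 1.21).

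**Figure D2:**
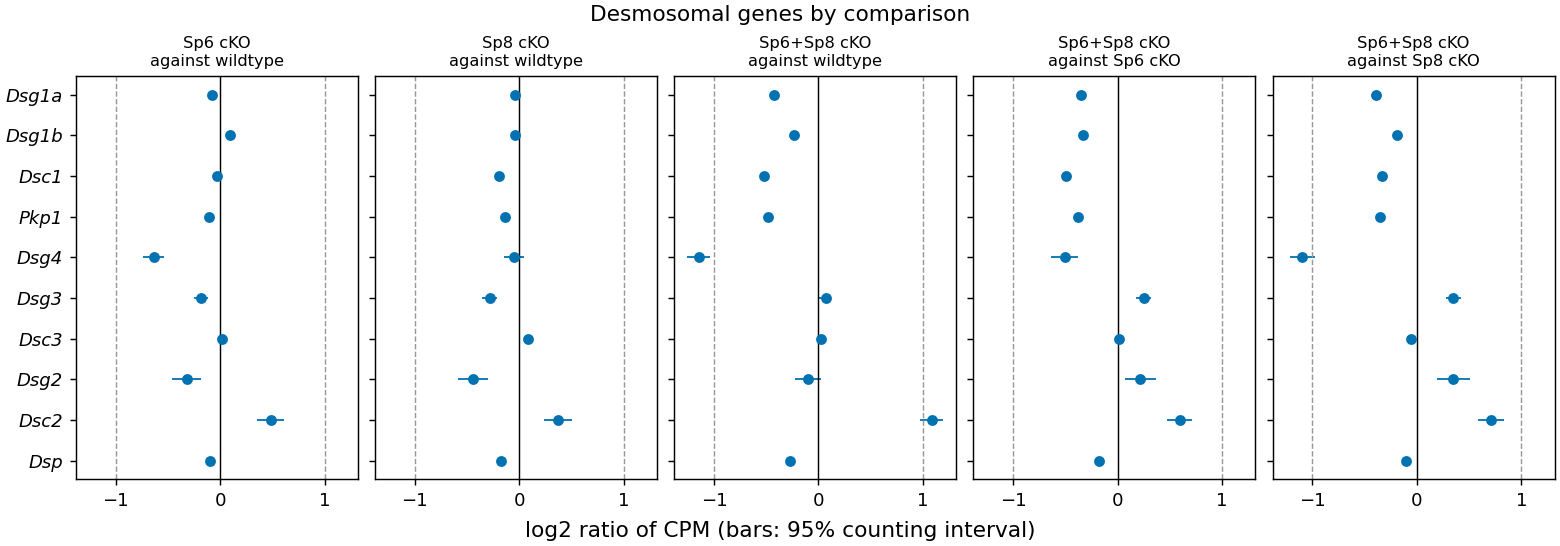
Log2 ratio of CPM for each of the 10 genes in 5 comparisons, 3 against wildtype and 2 of Sp6+Sp8 cKO against a single cKO within batch 1, with bars for the 95% counting interval and dashed lines at the size rule. In the 3 panels of Sp6+Sp8 cKO, Dsg1a, Dsg1b, Dsc1, Pkp1 and Dsg4 lie left of 0 and Dsc2 lies right of 0, and 2 genes against wildtype, Dsg4 and Dsc2, pass the dashed lines.

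In Sp6 cKO against wildtype 0 of the 10 genes passed the size rule, against 4.40% of all genes compared. Their median log2 ratio was -0.09, against -0.01 over all genes, with a range of -0.64 (Dsg4) to 0.48 (Dsc2). In Sp8 cKO against wildtype 0 of 10 passed, against 3.82%, with a median of -0.09 and a range of -0.44 (Dsg2) to 0.37 (Dsc2). Within batch 1, 0 of 10 passed in Sp6+Sp8 cKO against Sp6 cKO, where 3.97% of all genes did. In Sp6+Sp8 cKO against Sp8 cKO 1 of 10 passed, Dsg4, against 4.68% of all genes (2.80% lower). In Sp6 cKO against Sp8 cKO 0 of 10 passed, against 3.10%. The shares of 0 and 1 in 10 are too coarse to be set apart from these backgrounds.

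Ratios between members within a library do not depend on library scaling. Dsg1a and Dsg1b together had 9.91 counts for each count of Dsg3 in Sp6+Sp8 cKO (95% interval 9.60 to 10.2), against 15.0 in Sp6 cKO (14.4 to 15.5), 15.9 in Sp8 cKO (15.3 to 16.6) and 13.5 in wildtype (13.1 to 13.8). The Dsc1 to Dsc3 ratio was 1.38 in Sp6+Sp8 cKO (1.36 to 1.41), against 1.97 in Sp6 cKO (1.93 to 2.01), 1.67 in Sp8 cKO (1.64 to 1.70) and 2.03 in wildtype (2.00 to 2.06). In both subfamilies the suprabasal to basal ratio was lowest in Sp6+Sp8 cKO, with intervals that did not overlap those of the other libraries. These intervals cover counting error only, and how often other pairs of genes separate in this way was not counted. For single genes with a CPM of at least 10, the interval excluded 1 for 55.8% in Sp6+Sp8 cKO against wildtype. In the single cKO libraries the desmoglein ratio was above wildtype in both, whereas the desmocollin ratio was below wildtype in Sp8 cKO and its interval overlapped that of wildtype in Sp6 cKO.

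The Dsg4 to Dsg3 count ratio was 0.357 in Sp6 cKO (95% interval 0.332 to 0.384), 0.575 in Sp8 cKO (0.540 to 0.613) and 0.211 in Sp6+Sp8 cKO (0.196 to 0.227), against 0.489 in wildtype (0.467 to 0.512). The Dsc2 to Dsc3 ratio was 0.0619 in Sp6 cKO (0.0579 to 0.0662), 0.0545 in Sp8 cKO (0.0508 to 0.0585) and 0.0929 in Sp6+Sp8 cKO (0.0883 to 0.0977), against 0.0448 in wildtype (0.0421 to 0.0476). The 4 libraries had 4 separate intervals for Dsg4 to Dsg3, while the single cKO libraries overlapped for Dsc2 to Dsc3. These intervals too cover counting error only. The Pkp1 to Dsp ratio, likewise added after the values were seen, was 0.323 in Sp6+Sp8 cKO, 0.372 in Sp6 cKO and 0.385 in Sp8 cKO, against 0.375 in wildtype.

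Scaled for length, Dsc1 made up 57.5% of the desmocollin level in Sp6+Sp8 cKO, 66.5% in Sp6 cKO and 62.9% in Sp8 cKO, against 67.5% in wildtype. With the longest transcript as length these shares were 62.0%, 70.6% and 67.2%, against 71.6%. Dsc2 made up 3.69% in Sp6+Sp8 cKO, 2.00% in Sp6 cKO and 1.96% in Sp8 cKO, against 1.42% in wildtype, so it remained a minor desmocollin where it was highest. Of the desmoglein level per length, Dsg4 made up 2.78% in Sp6+Sp8 cKO, 3.19% in Sp6 cKO and 4.80% in Sp8 cKO, against 4.78% in wildtype, and Dsg3 made up 6.56% in Sp6+Sp8 cKO against 4.87% in wildtype.

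**Figure D3:**
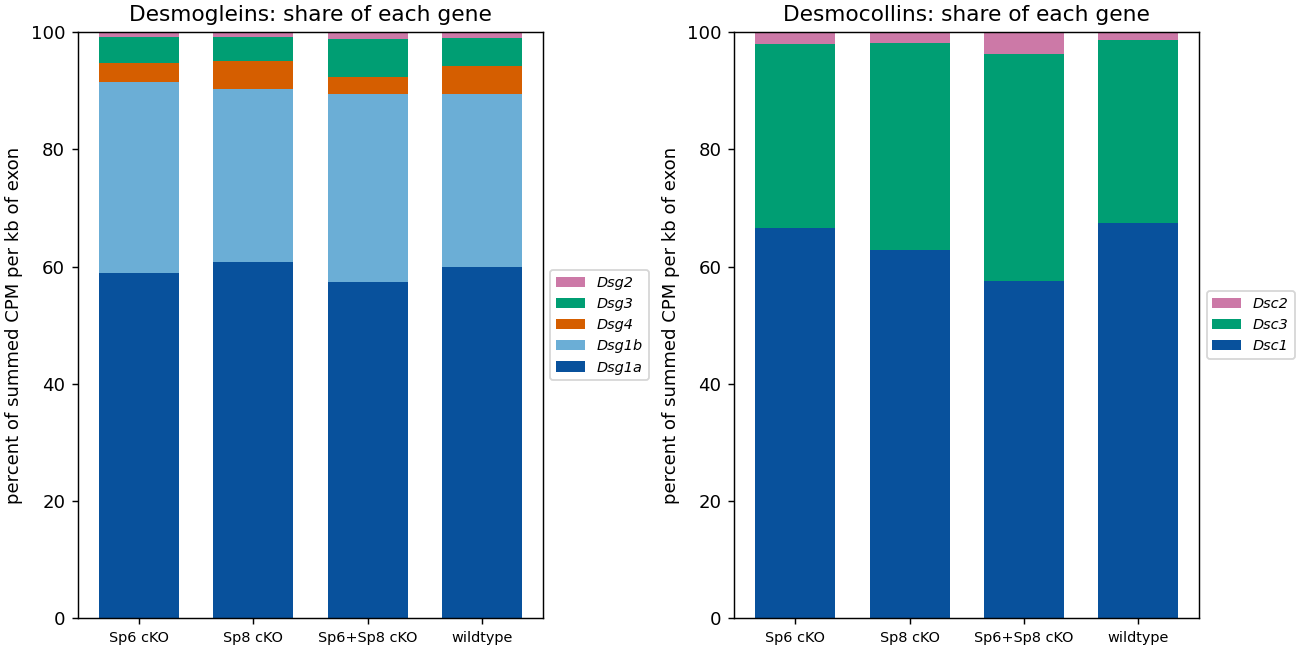
Stacked bars of the percent of summed CPM per kb of exon taken by each desmoglein (left) and each desmocollin (right) in the 4 libraries. Dsg1a and Dsg1b fill most of the desmoglein bar in every library, and in Sp6+Sp8 cKO the Dsc1 segment is shortest, at 57.5%, and the Dsc2 segment tallest, at 3.69%.

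Along the cluster some neighbours differed in the direction of their log2 ratio in Sp6+Sp8 cKO against wildtype, and others did not. Dsc2 was at 1.08 while the genes on its 2 sides, Dsc3 and Dsc1, were at 0.03 and -0.52. Dsc1, Dsg1a, Dsg1b and Dsg4 were all lower, at -0.52, -0.43, -0.24 and -1.14, and Dsg3 and Dsg2 after them were at 0.07 and -0.10. Dsg1c, a low-count gene outside the 10 that lies between Dsc1 and Dsg1a, was at 0.10 from 35 counts in Sp6+Sp8 cKO and 46 in wildtype. Whether the ratios follow position was not tested.

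**Figure D4:**
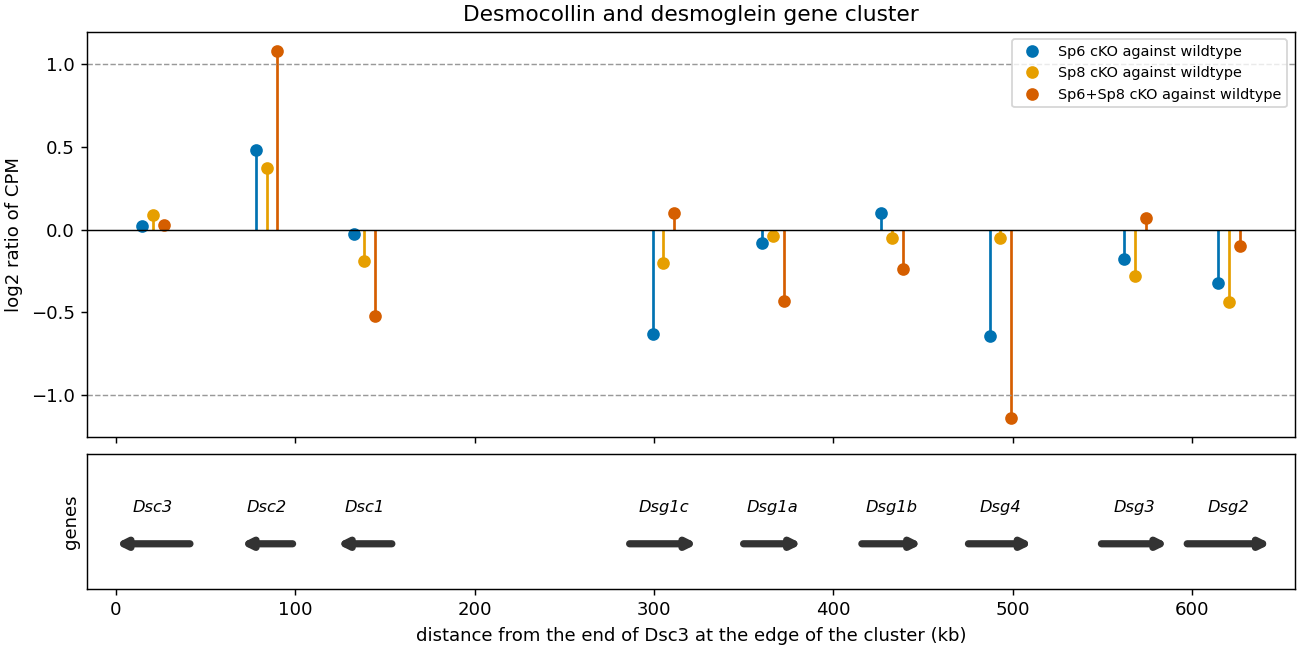
Log2 ratio of CPM against wildtype for the desmocollin and desmoglein genes at their place in the cluster (distance in kb from the outer end of Dsc3), for the 3 cKO libraries, with dashed lines at the size rule and arrows for gene strand below. In Sp6+Sp8 cKO some neighbouring genes differ in direction, with Dsc2 at 1.08 beside Dsc1 at -0.52 and Dsg4 at -1.14 beside Dsg3 at 0.07. The neighbours Dsg1a, Dsg1b and Dsg4 are all lower.

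In Sp6+Sp8 cKO against wildtype, other desmosome genes differed less than Dsg4 and Dsc2. None of 9 passed the size rule in any of the 3 comparisons with wildtype, with list medians of -0.26 in Sp6+Sp8 cKO, -0.09 in Sp6 cKO and -0.11 in Sp8 cKO. Cdsn, corneodesmosin of the cornified layer, was 734 CPM in Sp6+Sp8 cKO and 1295 CPM in wildtype, a log2 ratio of -0.82. The cornified envelope plakins Ppl (periplakin) and Evpl (envoplakin) were at -0.55 and -0.50, and the plakophilin Pkp3 at -0.51, in that comparison. Jup (plakoglobin) and Perp, a desmosomal tetraspan protein, were at -0.26 and -0.23, close to Dsp at -0.27. Pkp2, from 4.0 CPM in wildtype, was at 0.40.

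Other junction types were counted from lists of genes chosen by function. No adherens junction gene of 9 and no tight junction gene of 7 measured passed the rule against wildtype, and Cdh1 (E-cadherin), the classical cadherin of epithelia, was at -0.08, -0.04 and -0.07 in the Sp6, Sp8 and Sp6+Sp8 cKO libraries. Of 6 epidermal gap junction genes 1 was lower past the rule in Sp6+Sp8 cKO, Gjb6 (connexin 30) at -1.17, and all 6 had negative ratios there, with a median of -0.53. Of 10 hemidesmosome and basement membrane anchor genes 1 was lower in Sp6+Sp8 cKO, Col7a1, the collagen of anchoring fibrils, at -1.11, with a list median of -0.33. None of these lists had a member past the rule in Sp6 cKO or Sp8 cKO against wildtype. Over all genes compared, 5.79% passed in Sp6+Sp8 cKO, 4.40% in Sp6 cKO and 3.82% in Sp8 cKO against wildtype. Lists of this length are too short to be set apart from those shares.

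The kallikreins, which cut desmosomal proteins as the cornified layer is shed, were listed with other proteases and inhibitors. The list had 1 of 12 matched members past the rule in Sp6 cKO against wildtype, against 4.40% of all genes compared. That member was Klk6, at 16.2 CPM in Sp6 cKO and 5.70 CPM in wildtype (log2 ratio 1.49). The list median was 0.27, 0.06 and -0.13 in the Sp6, Sp8 and Sp6+Sp8 cKO libraries. None passed in Sp8 cKO or Sp6+Sp8 cKO against wildtype, where Klk14 had the lowest ratios, at -0.99 and -0.67. Wound keratins had no member of 4 past the rule and medians of 0.17, 0.08 and -0.22 in the same 3 libraries.

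None of 12 epidermal transcription factors passed the rule in the 3 comparisons with wildtype. Grhl1, which in mice is known to act on Dsg1a, was at -0.01, -0.02 and -0.41 in the Sp6, Sp8 and Sp6+Sp8 cKO libraries, and Trp63, the keratinocyte lineage factor, at -0.05, -0.13 and -0.05. Zfp750, a factor of terminal epidermal differentiation, was 327 CPM in Sp6 cKO, 294 CPM in Sp8 cKO and 232 CPM in Sp6+Sp8 cKO, against 333 CPM in wildtype.

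**Figure D5:**
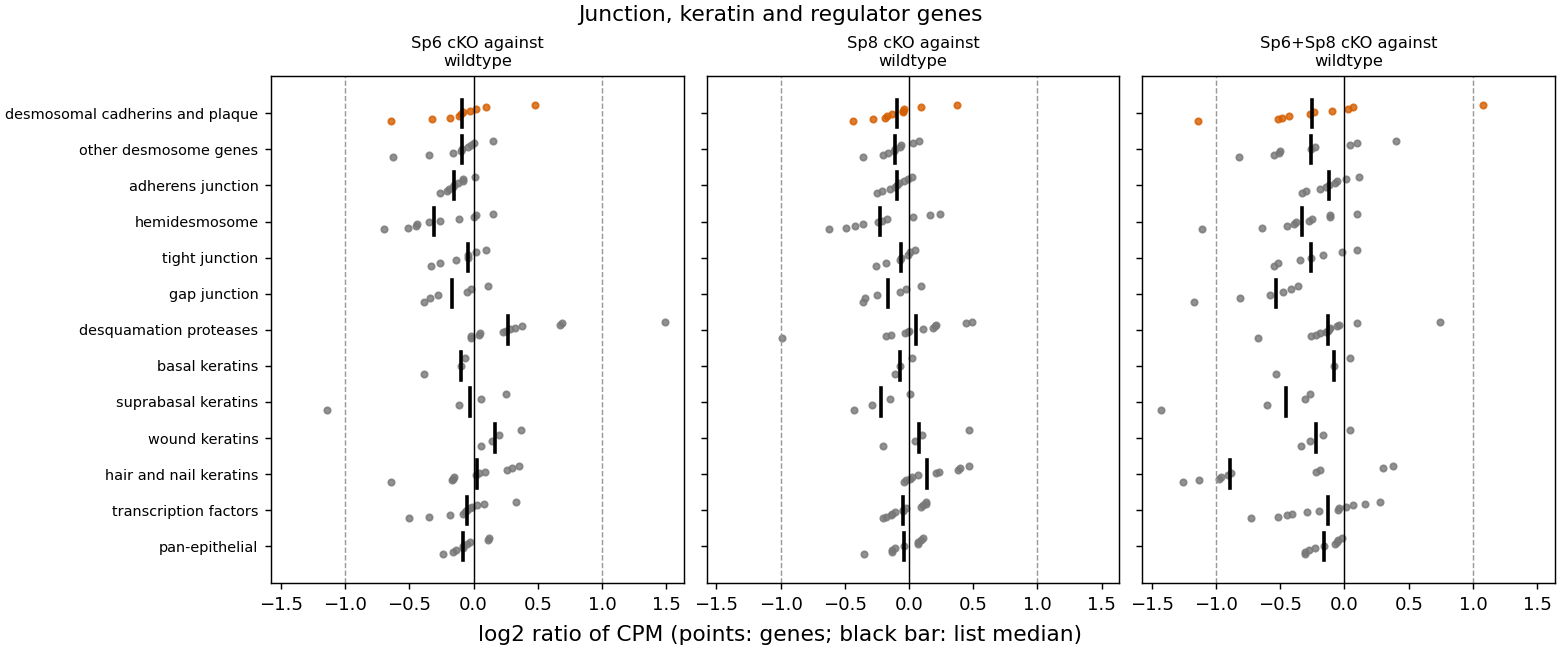
Log2 ratios against wildtype for the 10 desmosomal genes (orange points) and for lists of junction, keratin and regulator genes (grey points), with a black bar at each list median and dashed lines at the size rule. In Sp6+Sp8 cKO the hair and nail keratin median lies at -0.90 and that of the 10 genes at -0.25.

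Genes with the most similar pattern were found among 9635 protein-coding genes with a mean of at least 10 CPM, by the root mean square difference of log2 CPM after centring each gene over the 4 libraries. Each pattern rests on 4 values, and nothing about shared function or control follows from it. The 5 closest to Dsc1 were Zfp750 (difference 0.006), Col11a2, Lce1i, Stx18 and Fam214a (0.021). The 5 closest to Dsg4 were Clec2g (0.043), D2hgdh, N28178, Spink6 and Glb1l2 (0.097). Those close to Dsc2 included Wee1 (0.041), Hjurp, Eml5 and Etaa1 (0.074), and the 5 closest to Dsg3 were Car12 (0.009), Pdlim5, Prr11, Chd2 and Xpo1 (0.021). The differences for Dsg4 and Dsc2, whose levels spanned 2.21-fold and 2.12-fold over the libraries, were larger than those for Dsc1 and Dsg3, which spanned 1.44-fold and 1.27-fold.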

How the data were processed

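RNA-seq of whole digit tip regenerates gave 1 library for each of 4 genotypes. Per the labels' protocols, strand was kept by the dUTP method in libraries from poly-A RNA, which were read as 150 bp pairs. The authors deposited estimated counts for each gene with no scaling for depth. GRCm38, Salmon, STAR, featureCounts, Trim Galore 0.6.4, deepTools and edgeR are named, with no role, in the submitters' processing notes. The sources used here do not give the annotation release. Of the columns deposited, 1 could be tied to no sample and was left out.

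The estimated counts were first rounded to whole numbers. TMM factors for scaling came from edgeR 4.0.16 (R 4.3.3), and log2 ratios used a prior count of 2. Intervals of ratios are exact Clopper-Pearson intervals at 95%, conditional on the summed count, and those of single levels are exact Poisson intervals. Reads amplified by PCR are not independent molecules, so intervals may be too narrow. Gene models came from GENCODE M21 (98.8% of identifiers found). Lengths are unions of exons. Where a list symbol was not in the table, older symbols were looked up in RefSeq, and Krt85 and Ctsv were not analysed here. The 10 genes, the gene lists and the rules were chosen with earlier results of these data known. All 10 genes were named, and from each list the genes past the size rule and up to 3 others per comparison by absolute log2 ratio, with a few named for their role. One gene with a pattern close to Dsc2 is not reported here. The size rule was run on simulated counts with planted fold changes and counting error only. That simulation does not cover variation between animals or batches. As alternatives, scaling used DESeq2 1.42.0 size factors, library totals, totals without the 20 most abundant genes, the upper quartile or 9 pan-epithelial genes, and calls used a prior count of 0.5, no CPM minimum or one of 5, or a 1.5-fold threshold. Unrounded counts and TMM over the compared pair were added after seeing the data.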

Additional observations from a re-analysis of the deposited data

Results flagged for a closer look

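In Dsg2 and Dsg3 the libraries labelled as knockout of one factor differed in opposite directions depending on the label for the other, with counting intervals that excluded 1 on both sides. These differences were not tested, since each genotype had 1 library, and the first value of each pair lies across batches while the second lies within batch 1. The Sp6 transcript was still 57.8 CPM in Sp6+Sp8 cKO, against 29.2 CPM in Sp6 cKO and 95.6 CPM in Sp8 cKO, so these contrasts do not hold the level of Sp6 constant. For the Sp6 label, Dsg2 had a log2 ratio of -0.32 in Sp6 cKO against wildtype and 0.34 in Sp6+Sp8 cKO against Sp8 cKO, and Dsg3 had -0.18 and 0.35. For the Sp8 label, Dsg2 had -0.44 in Sp8 cKO against wildtype and 0.22 in Sp6+Sp8 cKO against Sp6 cKO, and Dsg3 had -0.28 and 0.25. The values for the Sp8 label come from the same libraries as those for the Sp6 label. For each gene the gap between first and second value is the same by construction, so the Sp8 label is not a separate finding. How often other genes differ in opposite directions in this way was not counted. For Dsg1b, the Sp6 label gave 0.10 in Sp6 cKO against wildtype and -0.19 in Sp6+Sp8 cKO against Sp8 cKO, and Dsg1b shares reads with Dsg1a.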

How the results depend on the processing

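No called direction was reversed under any alternative. Scaling to 9 pan-epithelial genes shifted the log2 ratios of the 10 genes by up to 0.17. It moved the median of all genes in Sp6+Sp8 cKO against wildtype to 0.15, and put 1 of the 10 genes (Dsc2) past the size rule there in place of 2, and 0 in place of 1 in Sp6+Sp8 cKO against Sp8 cKO. Under it the median log2 ratio of the 10 genes was -0.03, -0.05 and -0.09 in the Sp6, Sp8 and Sp6+Sp8 cKO libraries against wildtype, and -0.15 and -0.03 in Sp6+Sp8 cKO against Sp6 cKO and Sp8 cKO. In Sp6+Sp8 cKO against wildtype that median was -0.23 with library totals or the upper quartile and -0.21 without the 20 most abundant genes. For Sp6+Sp8 cKO against Sp6 cKO it was -0.21 with library totals and -0.20 without the 20 most abundant genes, and against Sp8 cKO it was -0.11 without them and -0.12 with the upper quartile. With a 1.5-fold threshold, 1 of 10 genes passed in Sp6 cKO against wildtype (Dsg4), 1 in Sp6+Sp8 cKO against Sp6 cKO (Dsc2), 2 in Sp6+Sp8 cKO against Sp8 cKO (Dsg4 and Dsc2) and 1 in Sp6 cKO against Sp8 cKO (Dsg4). Over all genes, a CPM minimum of 5 gave 255, 192 and 376 calls in the Sp6, Sp8 and Sp6+Sp8 cKO libraries against wildtype, in place of 743, 645 and 976, and no minimum gave 973 for Sp8 cKO. A 1.5-fold threshold gave 1534, 1377 and 2322. Within batch 1 the calls numbered 214, 277 and 135 with the minimum of 5 and 1606, 1834 and 1018 with 1.5-fold, in place of 669 (Sp6+Sp8 cKO against Sp6 cKO), 790 (Sp6+Sp8 cKO against Sp8 cKO) and 525 (Sp6 cKO against Sp8 cKO). Under pan-epithelial scaling 441 calls were higher and 257 lower in Sp6+Sp8 cKO against Sp6 cKO, in place of 318 and 351, and 447 and 367 against Sp8 cKO, in place of 317 and 473. That scaling turned the sign of 5 of 60 log2 ratios, each within 0.10 of 0 (Dsg2 in Sp6+Sp8 cKO, Dsc1 in Sp6 cKO and Dsg1a in Sp8 cKO, against wildtype, and Dsc3 and Dsp in Sp6+Sp8 cKO against Sp8 cKO). Other scalings, prior counts and rounding shifted no log2 ratio of the 10 genes by more than 0.05. No paired analysis was possible because each group had 1 library, and for the same reason no library could be left out.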
